A study of Drosophila melanogaster with 31 samples.

Results

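A set of 10 genes, out of 17373 in the count table, was examined across 18 RNA-seq libraries of Drosophila melanogaster wing imaginal discs because each gene was close to on or off in a single genotype. The genes are Dscam4, Snap25, mthl8, CG4362, CR43144, ppk13, SK, CG4562, CG7054 and CR45923. They were picked by their levels in these same libraries, so the differences between genotypes given for them are descriptions and carry no test. Of the 10, 5 stood apart in discs with clones mutant for capicua (cic) and the other 5 in discs with clones mutant for warts (wts). All 10 passed the filter on low counts, mthl8 only through the cic libraries and ppk13 only through the wts libraries.

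There were 6 groups of 3 libraries. Every larva carried the y w chromosome, the ubxflp source of recombinase, and on chromosome 3 an FRT82B arm with M(3) and ubiGFP opposite a second FRT82B arm. That second arm carried no further mutation in the control group, cicQ474X in the cic group, wts149 in the wts group, and the 2 alleles together in the cic wts group. Discs of the last larval instar were taken at day 5 for all 4 genotypes and at day 9 for wts and cic wts alone. Each library pooled discs of several larvae, and the labels number replicates without saying whether pools were raised apart, so the p-values reflect how far these pools varied. Discs were mosaic: they held mutant clones next to Minute cells, and a level is an average over the whole disc, in which fewer cells of a type and less RNA per cell cannot be told apart. Each genotype comes as a stock, so an allele and anything else that differs between stocks cannot be told apart.

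Capicua is a DNA-binding repressor of genes that Ras and EGFR signalling induces, and Warts, a kinase of the Hippo pathway, keeps the co-activator Yorkie out of the nucleus. In FRT clones, recombination makes homozygous the part of a chromosome arm beyond the FRT site. FRT82B lies near the base of arm 3R, which carries cic and wts, while the X, the arms of chromosome 2 and arm 3L stay as the larva inherited them. Of the 10 genes 8 are annotated as coding for proteins and 2, CR43144 and CR45923, as noncoding.

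Libraries held 14201662 to 26217144 counts, and 9004 genes were tested. Levels are CPM, counts scaled to a common library size, computed with TMM-scaled library sizes, and means are given ± SD over the 3 libraries of a group. The cic mRNA measured 587 ± 64.0 CPM (n = 3) in control discs and 467 ± 97.4 (n = 3) in cic discs, and the wts mRNA 100.0 ± 5.69 (n = 3) in control and 203 ± 15.7 (n = 3) in wts discs at day 5, so neither mutated gene was absent from its mutant discs. All 12 markers of wing disc epithelium were found, with summed levels of 1510 to 2290 CPM. The summed level of 10 neuron markers lay between 65.8 and 110.0 CPM in all libraries, 68.2 to 76.1 in control, 65.8 to 88.8 in cic and 86.0 to 99.7 in wts discs at day 5. Other tissue was visible in single libraries: the 7 salivary gland markers summed to 6130 CPM in control replicate 3 against 3.63 and 257 in the other controls, and the 8 hemocyte markers to 1650 CPM in replicate 1 of the cic wts discs at day 5, where the other replicates had 34.1 and 62.3. The 8 fat body markers summed to 699 CPM in cic wts day 5 replicate 2 and to 300.0 in wts day 9 replicate 2. Whole groups differed too. The 4 trachea markers summed to 924 to 1320 CPM in control and 1490 to 1610 in wts discs at day 5, the 6 glia markers to 244 to 286 and 305 to 377, and the 6 markers of adult muscle progenitors to 383 to 394 and 239 to 277. The part of these tissues in the levels of the 10 genes was not tested.

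Among the genes that stood apart in cic discs, the cell adhesion gene Dscam4 was the single one that was low there. This member of the Dscam immunoglobulin superfamily lies on arm 3L (8238647 to 8282398, release 6). Control libraries 1, 2 and 3 held 47.2, 54.5 and 47.8 CPM of Dscam4, and the cic libraries 1.13, 0.621 and 1.15. The wts libraries held 71.7, 75.4 and 61.8 CPM at day 5 and 79.2, 81.2 and 66.4 at day 9. In cic wts discs, which carry the same cicQ474X allele, Dscam4 stood at 65.8, 65.5 and 76.8 CPM at day 5 and at 67.7, 62.8 and 69.5 at day 9. The lowest library outside cic was thus 40.9 times the highest cic library. The 3 cic libraries were below all 15 others, the control libraries came next without overlap, and the wts and cic wts groups overlapped each other.

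Snap25 encodes a SNARE protein of synaptic vesicle fusion and lies on 3L (24074180 to 24299205). It measured 3.68, 4.66 and 3.71 CPM in control and 27.6, 53.5 and 26.3 in cic discs. Levels in wts discs were 5.31, 3.54 and 5.75 at day 5 and 4.25, 7.75 and 5.10 at day 9. The double mutant had 4.16, 4.97 and 3.76 CPM at day 5 and 8.57, 8.49 and 8.68 at day 9. The cic libraries were above all others, by 3.03 times at the closest pair. Control, wts and day 5 cic wts discs overlapped, and the day 9 cic wts libraries formed a step of their own. The neuron marker sums in cic replicates 1, 2 and 3 were 74.6, 65.8 and 88.8 CPM. Of these 10 markers 6 were under 1 CPM in all cic libraries, so the sum rests on few genes. The part of neurons in the level of Snap25 was not tested.

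The methuselah-like G protein-coupled receptor gene mthl8 (3L, 22428 to 26308, near the tip of the arm) was read in cic libraries alone. There it had 234, 130 and 353 counts, or 11, 5.77 and 17.7 CPM. In each of the 15 other libraries, cic wts included, it had 0 counts, which at 3 counts allows up to 0.212 CPM in the shallowest of them. Levels in cic discs were therefore at least 27.2-fold higher, with the floor set per library at 3 counts. Floors and intervals of this kind cover counting error only.

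CG4362 lies on arm 3R (20306216 to 20307537), 2.3 kb from cic itself. Control libraries had 0.699, 0.622 and 4.39 CPM, and cic libraries 21.8, 32.6 and 14.6. It stood at 0.989, 0.921 and 0.725 CPM in wts discs at day 5, at 1.54, 1.04 and 0.914 at day 9, at 0.609, 1.06 and 1.21 in cic wts discs at day 5, and at 1.21, 0.938 and 0.624 at day 9. Control replicate 3, the library with the salivary gland markers, was above the 14 other libraries outside cic, and its part in the level was not tested. With that library the groups were 3.32 times apart at the closest pair, and without it the log2 gap grew from 1.73 to 3.24.

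The noncoding gene CR43144 (2L, 21657625 to 21658249) was read in all libraries and was high in those of cic discs. Its level was 10.3, 8.66 and 7.78 CPM in control and 95.2, 149 and 72.4 in cic discs. Levels were 9.99, 9.49 and 10.6 in wts discs at day 5, 9.77, 8.37 and 8.81 at day 9, and 8.63, 8.65 and 8.19 in the double mutant at day 5. The day 9 cic wts libraries, at 13.1, 12.4 and 13.1 CPM, were above all libraries of the other groups but cic. The gap between cic and the rest was 5.52 times at the closest pair. Within the cic group CR43144, Snap25 and CG4362 were all highest in replicate 2, while mthl8 and Dscam4 were lowest in it.

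**Figure D1:**
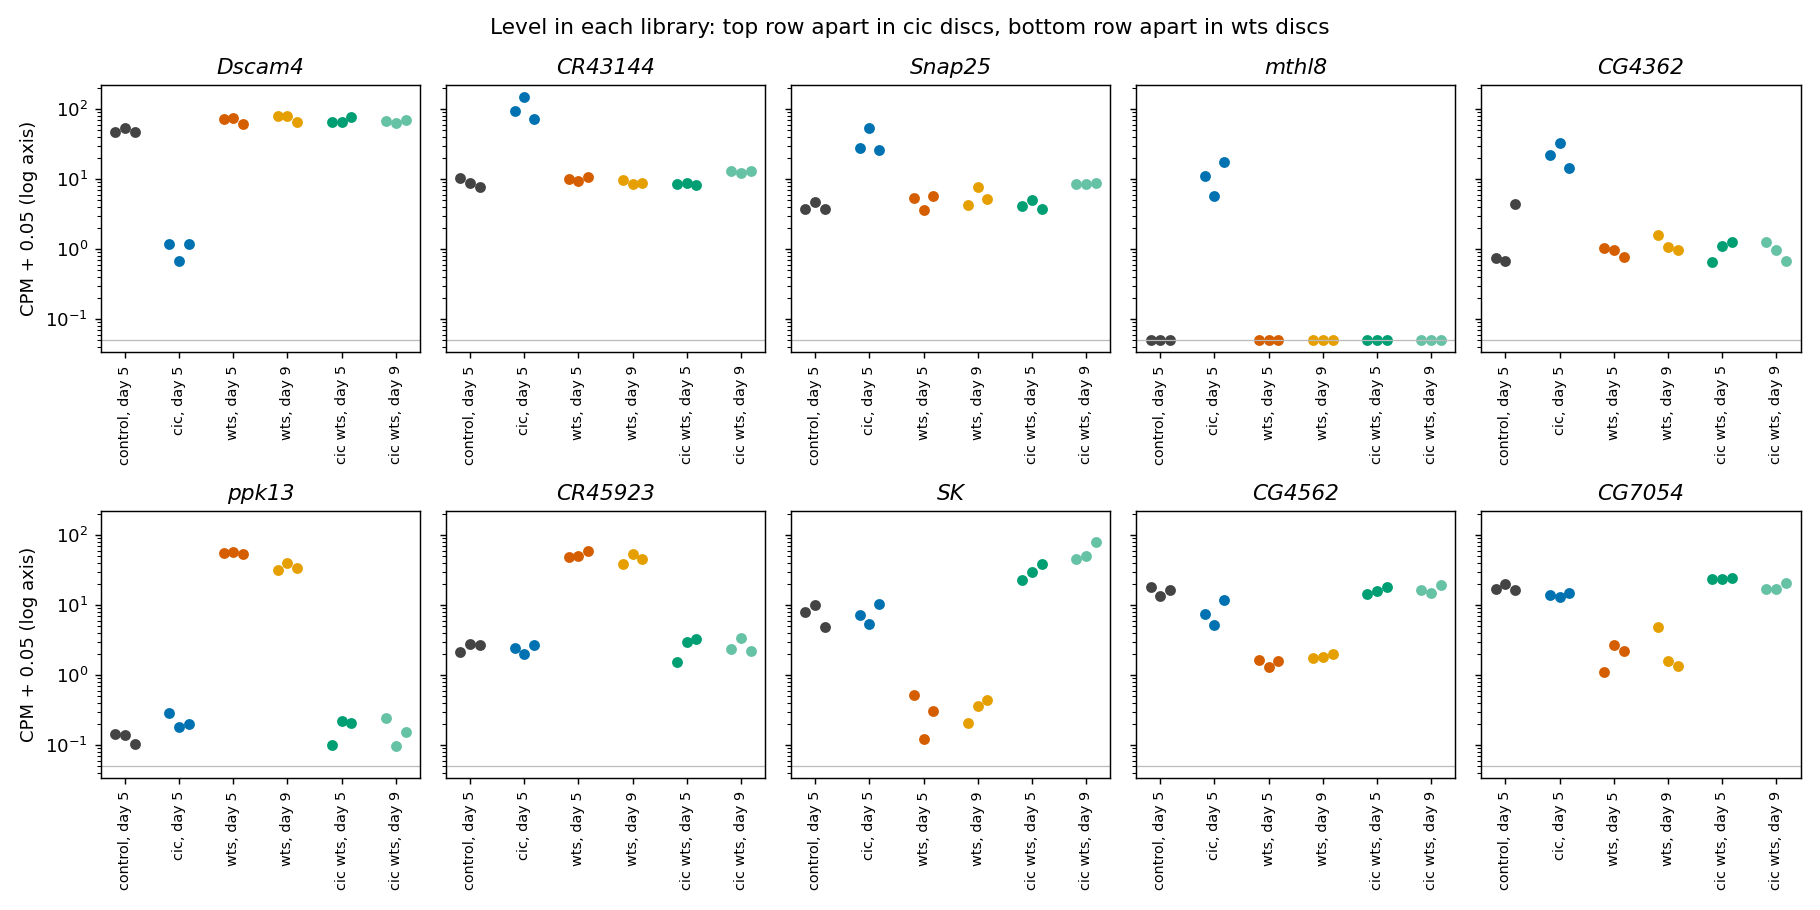
Level of each of the 10 genes in every library, as CPM plus 0.05 on a log axis, with libraries grouped by genotype and day; each point is 1 library and the grey line marks 0 counts. The cic libraries alone lie apart in the top row, the wts libraries of both days in the bottom row, and the cic wts libraries lie on the control side in all 10 panels.

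Among the genes that stood apart in wts discs, the DEG/ENaC sodium channel gene ppk13 (2L, 21086790 to 21088751) had the widest gap. Control libraries held 2, 2 and 1 counts, or 0.0931, 0.0888 and 0.0529 CPM, and cic libraries 0.235, 0.133 and 0.150 CPM. The wts libraries held 55.6, 56.7 and 52.9 CPM at day 5 and 31.1, 39.9 and 33.9 at day 9. In cic wts discs, which carry the same wts149 allele, it was at 0.0508, 0.167 and 0.157 CPM at day 5 and 0.194, 0.0469 and 0.104 at day 9. The lowest wts library was 132 times the highest other library. Outside wts discs ppk13 had 1 to 5 counts per library, so the order of those groups cannot be read at this depth.

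SK encodes the small-conductance calcium-activated potassium channel and lies on the X (5340236 to 5405138). It was low in wts discs, at 0.468, 0.0708 and 0.259 CPM at day 5 and 0.159, 0.312 and 0.385 at day 9. Control discs had 7.92, 10.1 and 4.87 CPM and cic discs 7.25, 5.37 and 10.3. The cic wts libraries were the highest, at 23.0, 29.6 and 38.5 CPM at day 5 and 45.3, 50.6 and 80.0 at day 9. The order was wts, then control and cic with overlap, then cic wts at day 5 and at day 9 without overlap. SK was thus the gene of the 10 whose double mutant lay farthest beyond the control range, and the gap between wts and the rest was 10.4 times. The male-specific dosage compensation RNA roX1 differed between single libraries, from 110.0 to 1040 CPM. Its day 5 means were 403 ± 178 in control, 263 ± 147 in cic, 638 ± 74.0 in wts and 738 ± 308 CPM in cic wts discs (n = 3 each), and its part in the level of SK was not tested.

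CG4562, which the reference names Mrp5, encodes an ABC transporter of the multidrug resistance protein class (3R, 19865417 to 19875678, 377.1 kb from cic). It measured 17.9, 13.6 and 16.3 CPM in control and 7.44, 5.10 and 11.9 in cic discs. Libraries of wts discs held 1.61, 1.27 and 1.55 CPM at day 5 and 1.70, 1.77 and 1.92 at day 9. The cic wts libraries held 14.3, 16.0 and 17.9 CPM at day 5 and 16.1, 14.9 and 19.0 at day 9. The wts libraries were below all others, with 2.65 times between the closest pair. The cic libraries lay between wts and control without overlap with either, so CG4562 took 3 levels over the genotypes.

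CG7054 encodes a protein of the phosphatidylethanolamine-binding family (3R, 22464985 to 22465938, 2161 kb from cic). Levels were 17.0, 19.9 and 16.5 CPM in control and 14, 12.9 and 14.7 in cic discs. In wts discs they were 1.04, 2.62 and 2.18 at day 5 and 4.73, 1.56 and 1.30 at day 9. The double mutant had 23.3, 23.7 and 24.2 CPM at day 5 and 16.8, 16.7 and 20.5 at day 9. The wts libraries were the lowest, 2.73 times below the closest other library, and day 9 replicate 1 was the one nearest to the rest. Without that replicate the log2 gap grew from 1.45 to 2.30.

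The noncoding gene CR45923, called lncRNA:dntRL in the reference, lies on 2R (4621118 to 4622481). It measured 2.10, 2.75 and 2.59 CPM in control and 2.35, 1.95 and 2.61 in cic discs. The wts libraries had 48.2, 49.9 and 58.2 CPM at day 5 and 39.0, 53.5 and 45.1 at day 9, and the cic wts libraries 1.47, 2.90 and 3.25 at day 5 and 2.27, 3.28 and 2.13 at day 9. The wts libraries of both days overlapped each other and were at least 11.9 times above the rest. Control, cic and cic wts discs overlapped.

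Together, 3 of the genes lie on arm 3R with cic and wts, 3 on 3L, 2 on 2L, 1 on 2R and 1 on the X. On 3R, CG4362 is 2.3 kb, CG4562 377.1 kb and CG7054 2161 kb from cic, and they are 10482.1, 10913.9 and 8323.7 kb from wts. The other 7 are on arms that FRT82B recombination does not reach. The table counts reads per gene and holds no genotypes, and whether the levels follow the mutated gene or a variant elsewhere in a stock was not tested.

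Whether the difference extended to adjoining genes was examined in the fit across all genes (edgeR quasi-likelihood test, Benjamini-Hochberg adjusted p under 0.05 taken as a call). In cic against control discs 1.63% of all tested genes were called. Of the 37 tested neighbours within 50 kb of the 5 genes apart in cic discs, 5 were called, 4 risen and 1 fallen, or 13.5%. The count was 1 when the fit held the compared libraries only and 2 without cic replicate 2, where the calls over all genes fell from 147 to 19 and 61. Within 20 kb 4 of 18 neighbours were called (22.2%), and within 200 kb 6 of 106 (5.66%). Of the called neighbours, CG13674 and CG4367 passed the filter on low counts only through the cic libraries. Their high level there was thus a condition of being tested, and the shares are descriptions. In wts against control discs 18.2% of all tested genes were called, and of the 56 neighbours of the 5 genes apart in wts discs 10 were called, 6 risen and 4 fallen, or 17.9%, a share close to the background. These include CG42238 and T-cp1, named after their values were seen. CG42238 lost its call in 5 of the 6 fits without a compared library (edgeR adjusted p of 0.027 to 0.14). T-cp1 lost it in 6 of 6 (0.051 to 0.15).

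Of the 5 called neighbours of the cic genes, 4 lay within 20 kb. Cul2, which encodes a cullin of E3 ubiquitin ligases and lies 0.49 kb from CR43144, measured 186, 201 and 178 CPM in control and 753, 1070 and 556 in cic libraries. It rose by 2.08 ± 0.16 (log2 ± SE, edgeR adjusted p = 3.3e-06), and stood at 186 ± 5.77 CPM (n = 3) in wts and 193 ± 18.8 (n = 3) in cic wts discs at day 5. Cul2 and CR43144 were thus raised in the same 3 libraries and in the same order within them. The next gene, CG2225 at 5.56 kb, was at 0.32 ± 0.11 (edgeR adjusted p = 0.24), and Ac3, an adenylyl cyclase gene at 9.66 kb on the other side, at 0.70 ± 0.23 (edgeR adjusted p = 0.21).

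CG4367 lies between CG4362 and cic, 1.24 kb from CG4362. It measured 0.0931, 0.0888 and 1.80 CPM in control and 14.4, 21.2 and 8.27 in cic libraries, a rise of 4.50 ± 0.84 (log2 ± SE, edgeR adjusted p = 0.011). Like CG4362 it was highest among the controls in replicate 3 and highest among the cic libraries in replicate 2. The call was lost without cic replicate 2 (edgeR adjusted p = 0.073) and with the compared libraries only (0.28). CG42668, 1.81 kb on the other side of CG4362, was at -0.05 ± 0.08 (edgeR adjusted p = 0.87), and cic itself at -0.33 ± 0.12 (0.25).

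CG7213 overlaps the start of Dscam4, and since the strand setting of the counting is not given, reads of the overlap cannot be assigned. It had 1.02, 1.60 and 1.59 CPM in control and 0 counts in all 3 cic libraries, which at 3 counts allows up to 0.150 CPM, and it fell with edgeR adjusted p = 4.1e-06 (0.065 with the compared libraries only). It was at 2.67 ± 0.595 CPM (n = 3) in wts and 2.41 ± 0.496 (n = 3) in cic wts discs at day 5. The ceramide transfer gene cert, 0.13 kb from the other end of Dscam4, was at 0.01 ± 0.07 (edgeR adjusted p = 0.98). CG13674, 19.66 kb away, went from 0.141 ± 0.0359 to 2.33 ± 1.19 CPM (n = 3 each, 3.98 ± 0.76, edgeR adjusted p = 0.018), a call lost in 5 of the 6 fits without a library (adjusted p from 0.053 to 0.091). BI-1, 24.75 kb from Dscam4 and named after its value was seen, was at 0.29 ± 0.07 (edgeR adjusted p = 0.048), and its call was lost in 6 of the 6 fits without a compared library (0.07 to 0.17). Near Snap25 and mthl8 a single neighbour each was tested, and 0 were called by edgeR or DESeq2 or had an unadjusted p under 0.05.

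Near ppk13, 5 of 10 neighbours rose in wts against control discs. CG33509, 0.28 kb away, measured 0.0466, 0.266 and 0.0529 CPM in control and 23.6, 29.2 and 24.9 in wts libraries, a rise of 7.61 ± 0.53 (log2 ± SE, edgeR adjusted p = 2.8e-07). In cic wts discs it was at 0.0633 ± 0.0573 CPM (n = 3) at day 5 and 0.0491 ± 0.00261 (n = 3) at day 9, against 15.2 ± 2.16 (n = 3) in wts discs at day 9, so it followed ppk13 through the groups. CG9259, 0.62 kb on the other side, was at 0, 0 and 0.0529 CPM in control and 0.520, 0.850 and 0.414 in wts libraries (edgeR adjusted p = 0.0035). Both CG33509 and CG9259 passed the filter on low counts only through the wts libraries, so a high level there was a condition of being tested.

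The sodium-proton exchanger gene Nhe2 and CG9265, lie farther out. Nhe2 was at 0.51 ± 0.17 in wts against control discs (edgeR adjusted p = 0.048, lost in 10 alternative fits with p from 0.0503 to 0.17). It was lower in cic wts than in wts discs by 0.70 ± 0.17 at day 5 (edgeR adjusted p = 0.036) and by 1.63 ± 0.17 at day 9 (2.9e-05). CG9265 rose by 1.21 ± 0.20 in wts (edgeR adjusted p = 0.00096) and by 1.23 ± 0.20 in cic wts against control discs (0.00054), where ppk13 was low. Of the genes around the other wts members, those next to CR45923 and SK were not called: CG17486, 0.28 kb from CR45923, was at 0.12 ± 0.11 (edgeR adjusted p = 0.49), and the amino acid transporter gene NAAT1, 0.10 kb from SK, at -0.76 ± 0.30 (0.089). By edgeR, called neighbours were 0 of 3 around CR45923, 1 with an unadjusted p under 0.05 and 0 by DESeq2, and 0 of 15 around SK, 5 with an unadjusted p under 0.05 and 3 by DESeq2.

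CG4686 overlaps CG4562, again without a known strand setting. It fell from 25.2 ± 1.49 CPM (n = 3) in control to 12.2 ± 0.522 (n = 3) in wts discs, by 1.04 ± 0.13 (log2 ± SE, edgeR adjusted p = 7.6e-05), and was 0.91 ± 0.13 higher in cic wts than in wts discs at day 5 (0.00066) and 0.92 ± 0.13 higher at day 9 (0.00041). The FGF ligand gene bnl (branchless), the other called neighbour of CG4562, moved otherwise. It was at 17.2 ± 3.83 CPM (n = 3) in control and 44.8 ± 15.2 (n = 3) in cic discs, and fell to 8.95 ± 0.587 (n = 3) in wts discs (by 0.95 ± 0.26, edgeR adjusted p = 0.021, lost without single libraries in 4 fits).

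Next to CG7054, AP-2mu encodes the medium subunit of the clathrin adaptor AP-2 and lies 0.38 kb away. It measured 88.4, 92.3 and 101 CPM in control and 55.4, 55.6 and 48.0 in wts libraries, a fall by 0.83 ± 0.09 (log2 ± SE, edgeR adjusted p = 3.6e-05). It was 0.76 ± 0.09 higher in cic wts than in wts discs at day 5 (edgeR adjusted p = 0.00024) and 0.66 ± 0.09 higher at day 9 (0.00046), with cic at 97.6 ± 6.19 CPM (n = 3). As for CG7054, the wts libraries of both days were its lowest. Pebp1, a gene of the same family as CG7054 that lies 0.10 kb on its other side, was at 0.110 ± 0.0426 CPM (n = 3) in wts and 0.826 ± 0.309 (n = 3) in control discs (-2.80 ± 1.04, edgeR adjusted p = 0.074). Its fall passed with DESeq2 (adjusted p = 0.035) and with the compared libraries only (edgeR adjusted p = 0.016). pinta, at 0.77 ± 0.12 (0.00062), rose as much in cic wts against control discs (0.78 ± 0.12, edgeR adjusted p = 0.00034).

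Shares in the other comparisons are given against the share of all tested genes. The neighbours of the cic genes were called for 8 of 37 in wts against control (21.6%, against 18.2%) and 11 of 37 in cic wts against control (29.7%, against 22.5%). In cic wts against wts they were called for 2 of 37 at day 5 (5.41%, against 2.91%) and 4 of 37 at day 9 (10.8%, against 6.9%). The neighbours of the wts genes were called for 5 of 56 in cic against control (8.93%, against 1.63%) and 8 of 56 in cic wts against control (14.3%, against 22.5%). In cic wts against wts they were called for 6 of 56 at day 5 (10.7%, against 2.91%) and 10 of 56 at day 9 (17.9%, against 6.9%). The wts genes stood apart from cic wts discs too, so the pick enters the shares of cic wts against wts. CG33509 and CG9259 were also tested only through their level in wts libraries. In cic against control the share near the wts genes was thus above that of all genes too. The neighbours of CG4562 include CG31459, which had 0 counts outside cic discs, so its level there was a condition of being tested. Neighbours share a place on the chromosome and are not independent, so these shares are descriptions.

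**Figure D2:**
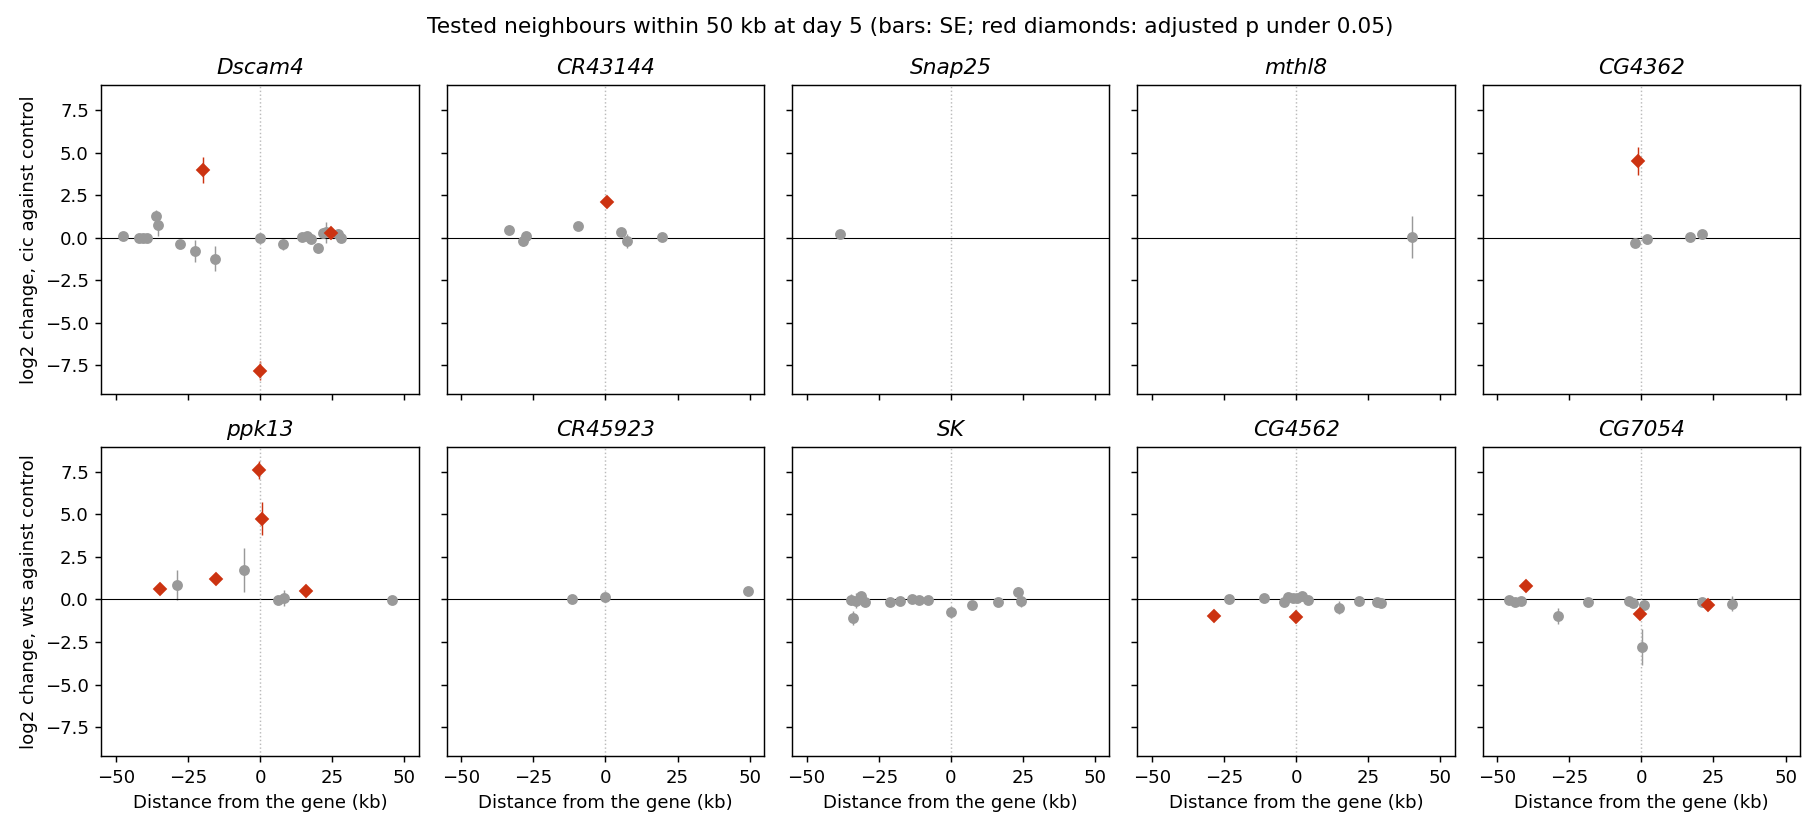
log2 change of each tested neighbour against its distance from the gene in kb, in cic against control discs (top row) and wts against control discs (bottom row) at day 5; bars are SE and red diamonds mark an adjusted p under 0.05. Cul2, CG4367, CG33509, CG9259, CG4686 and AP-2mu lie within 1.24 kb of the gene named in the panel; the lowest diamond, CG7213 over Dscam4, has 0 counts in cic libraries, so its plotted size depends on the fit and is no bound.

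The genes most like each of the 10 over all 18 libraries were sought by Pearson's r of log2 CPM, 3 per gene, as a description in which the points share libraries and depth. Of the 30 matches, 12 were on the same arm, 5 were within 50 kb and 6 linked the genes of the set to each other. The match of ppk13 with CR45923 is counted in each direction. The genes were picked for a gap between genotypes, so a high r among genes that share the gap follows from the pick. No such share over all genes was computed. For Dscam4 the closest was CG7213 (r = 0.987, n = 18 libraries), followed by Mst89B on 3R (0.919), which was at 4.12 ± 2.31 CPM (n = 3) in control and 0.108 ± 0.0504 (n = 3) in cic discs. CG4362 went with CG4367 (0.974), ppk13 with CG33509 (0.990) and CG4562 with CG4686 (0.960). CG7213 overlaps Dscam4 and CG4686 overlaps CG4562, so with an unknown strand setting shared reads may enter these matches.

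Other matches were far away or on another chromosome. CR43144 was closest to the odorant receptor gene Or98a on 3R (r = 0.982, n = 18 libraries), to CG31459 on 3R (0.981) and to its neighbour Cul2 (0.981), and mthl8 to CG31459 (0.979). CG31459 measured 3.11, 2.80 and 1.40 CPM in cic libraries and Or98a 0.800, 2.40 and 0.802, and each had 0 counts in all 15 other libraries, as mthl8 did. ppk13 on 2L and CR45923 on 2R matched each other at 0.989, and the gene next closest to ppk13, vis on 2R (0.966), was at 9.89 ± 0.259 CPM (n = 3) in wts and 3.46 ± 0.618 (n = 3) in control discs. SK was closest to RhoGAP16F on the X (0.972) and to pnt on 3R (0.962), which encodes the ETS factor downstream of EGFR and was at 39.5 ± 2.32 CPM (n = 3) in wts, 69.4 ± 2.87 (n = 3) in control and 137 ± 15.5 (n = 3) in cic wts discs at day 5.

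**Figure D3:**
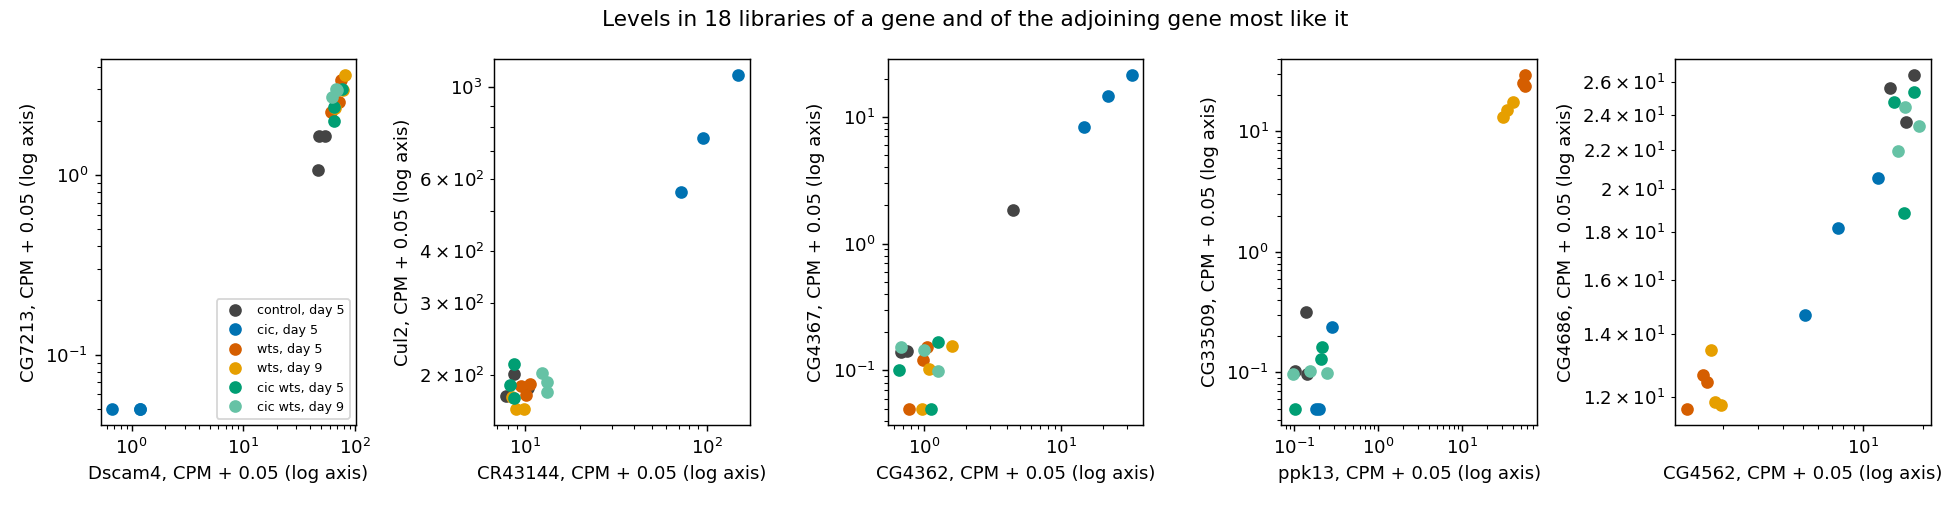
CPM plus 0.05 of 5 of the genes (x axis) and of the adjoining or overlapping gene most like each (y axis), both on log axes, with 1 point per library coloured by genotype and day. CG7213 and CG4686 overlap Dscam4 and CG4562 and may share reads with them. The cic libraries lie apart for Dscam4, CR43144 and CG4362, the wts libraries for ppk13 and CG4562, and control replicate 3 lies between the clusters for CG4362 and CG4367.

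How many other genes share such a pattern was counted with a ratio of at least 5 between all libraries of a genotype and all others and at least 1 CPM on the high side. Of 9004 tested genes 15 passed, or 0.167% (28 without control replicate 1 and 7 with a floor of 5 CPM), and 6 of the 10 were among them: Dscam4, CR43144, mthl8, ppk13, CR45923 and SK. The other 4, CG4362, Snap25, CG7054 and CG4562, had ratios of 3.32, 3.03, 2.73 and 2.65, below the limit, and the gene just inside it was CG14695 at 5.03. The rule asked wts and cic wts discs to pass at both days and control and cic discs at day 5 only. Counts are therefore not compared between genotypes. By genotype, 7 genes were on and 3 off in cic discs, 3 on and 2 off in wts discs, and 0 on or off in control or in cic wts discs. Outside the set these included CG13674, CG31459, CG18063, CG14695, CR44316 (on) and Mst89B and CG7213 (off) in cic discs, and CG33509 (on) and CG17669 (off) in wts discs.

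CG17669, named Dnaaf3 in the reference and thus an assembly factor of ciliary dynein, was at 11.4, 16.1 and 7.68 CPM in control and at 0.052, 0 and 0 in wts libraries at day 5, with 0 counts in all wts libraries at day 9 and 9.04, 8.26 and 8.97 CPM in cic wts libraries at day 5. By arm the 15 genes were 4 on 2L, 4 on 3L, 3 on 2R, 3 on 3R, 1 on the X and 0 on chromosome 4, where the tested genes divide as 17.4%, 20.0%, 20.4%, 24.5%, 16.8% and 0.922%. Within 1 Mb of cic, 7 of 128 tested genes were called in cic against control discs (5.47%), and within 5 Mb 22 of 815 (2.7%). Both windows hold the picked genes CG4362 and CG4562, and CG31459 with 0 counts outside cic discs, so these shares are descriptions. On whole arms, the picked genes included, the share was 3.04% on 3L, 2.2% on 3R, 1.14% on the X, 0.842% on 2L and 0.715% on 2R.

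The genes were picked for differences between genotypes, and their change from day 5 to day 9 within a genotype was tested in the same fit. The pick placed both days of a genotype on the same side, which limits how far the days could differ. In wts discs 6.89% of all tested genes were called, and of the 9 genes with counts 1 was, ppk13. It fell by 0.66 ± 0.14 (log2 ± SE, edgeR adjusted p = 0.015), from 55.1 ± 1.93 to 34.9 ± 4.50 CPM (n = 3 each), with all 3 libraries of day 9 below all 3 of day 5. The call was lost in 4 of the fits without a library (adjusted p of 0.067 to 0.069). CR45923, the other gene that was high in wts discs, was at -0.18 ± 0.20 (edgeR adjusted p = 0.60).

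In cic wts discs 10.6% of all tested genes were called, and of the same 9 genes 1 was, Snap25. It rose by 1.00 ± 0.27 (log2 ± SE, edgeR adjusted p = 0.031), from 4.30 ± 0.615 to 8.58 ± 0.0963 CPM (n = 3 each), without overlap of the days. That call was lost in 5 of the fits without a library (adjusted p of 0.057 to 0.10), and at 0.10 without the 2 libraries with salivary gland or hemocyte markers. The summed neuron markers were 81.5 to 110.0 CPM at day 5 and 75.9 to 94.3 at day 9. Of the 10 markers 6 and 7 were under 1 CPM in all libraries of these days, and their part was not tested.

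SK and CR43144 lay just outside the threshold in cic wts discs, each with all day 9 libraries above all day 5 libraries. SK was at 0.95 ± 0.30 (edgeR adjusted p = 0.053), with means of 30.4 ± 7.80 and 58.6 ± 18.7 CPM (n = 3 each), and passed with a DESeq2 Wald test (0.020) and with total-count scaling (0.049). Over the same days roX1 went from 738 ± 308 to 347 ± 110 CPM (n = 3 each), and its part in the level of the X-linked SK was not tested. CR43144 was at 0.60 ± 0.19 (edgeR adjusted p = 0.056), from 8.49 ± 0.264 to 12.9 ± 0.404 CPM (n = 3 each), and passed with DESeq2 (0.031). CG7054 was at -0.40 ± 0.31 (edgeR adjusted p = 0.43), with all day 9 libraries below all day 5 libraries, and passed with the compared libraries only (0.049). Dscam4, CG4362, ppk13, CR45923 and CG4562 lay between -0.14 and 0.05 with adjusted p of 0.79 or more. For ppk13 this rests on 1 to 4 counts per cic wts library, too few to read a change.

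Whether the change between days differed between the genotypes was tested as the difference of the day effects, a test added after the data were seen. Of all genes 0% were called by edgeR, 593 had an unadjusted p under 0.05, and DESeq2 called 33. Snap25 was 0.78 ± 0.39 higher in its day effect in cic wts than in wts discs (edgeR adjusted p = 0.76), CR43144 0.76 ± 0.27 (0.68) and SK 0.92 ± 0.82 (0.91), so the rise is not shown to be particular to the double mutant.

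**Figure D4:**
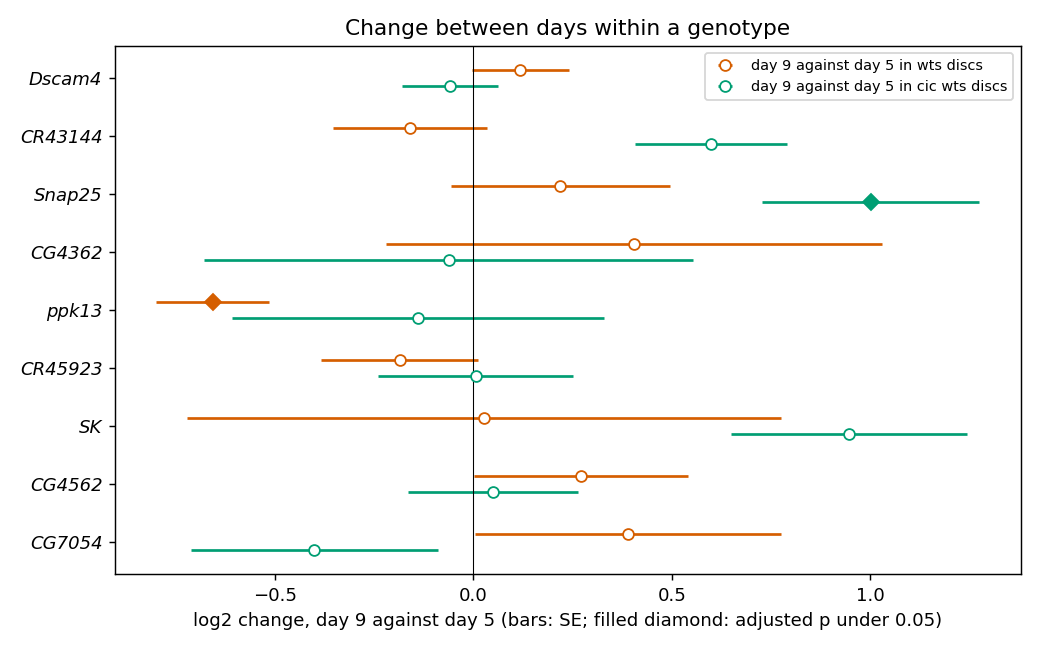
log2 change from day 5 to day 9 of the 9 genes with counts, in wts (orange) and cic wts discs (green), with SE bars; filled diamonds have an adjusted p under 0.05. The 2 diamonds are ppk13 in wts discs at -0.66 and Snap25 in cic wts discs at 1.00, and mthl8 is left out because it has 0 counts there.

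Relatives of the 10 genes, taken from lists of their families, were counted in the same fit. In cic against control discs 0 of 2 other tested Dscam genes, 0 of 11 other methuselah receptors and 1 of 24 other SNARE and vesicle fusion genes were called by edgeR, where 1.63% of all genes were. DESeq2 also called 0 of the Dscam genes and 0 of the receptors, and 0 and 1 of them had an unadjusted p under 0.05. The SNARE list call was unc-13, a vesicle priming gene, which rose from 422 ± 29.8 to 929 ± 131 CPM (n = 3 each, 1.14 ± 0.14, edgeR adjusted p = 0.00047) and also in cic wts against control discs (0.67 ± 0.14, 0.0032). The median change of the SNARE genes was 0.03, beside 0.00 for all genes, and that of the methuselah receptors -0.10. The Dscam genes had a median of 1.19 over 2 genes, Dscam1 and Dscam2. Dscam2 was near the counting floor in control discs, at 0.0501 ± 0.0532 CPM (n = 3), so this median is not read as a change of the family.

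In wts against control discs 4 of 5 other tested pickpocket channels were called, where 18.2% of all genes were. ppk rose by 1.67 ± 0.16 (log2 ± SE, edgeR adjusted p = 9.4e-06), from 1.73 ± 0.201 to 5.51 ± 0.169 CPM (n = 3 each), ppk29 by 1.03 ± 0.18 (0.0013) and rpk by 0.94 ± 0.19 (0.0040). ppk22 was at -2.81 ± 0.83 (edgeR adjusted p = 0.029, lost in 5 of the fits without a library). The median of the 5 was 1.03, beside 0.00 for all genes. Unlike ppk13, ppk was also above control in cic wts discs (0.89 ± 0.16, edgeR adjusted p = 0.0012, and 0.068 with the compared libraries only). At day 5 it was 0.78 ± 0.16 below wts discs there (edgeR adjusted p = 0.012, lost without cic wts or wts replicate 1), and 0.77 ± 0.15 below at day 9 (0.0052).

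For the other wts genes, 2 of 10 other potassium channel genes were called in wts against control discs, a share near the 18.2% of all genes, 1 in each direction: the ERG-type channel gene sei rose by 0.64 ± 0.15 (log2 ± SE, edgeR adjusted p = 0.0093) and KCNQ fell by 0.64 ± 0.21 (0.0498). The KCNQ call was lost in 6 of the 6 fits without a compared library (adjusted p of 0.064 to 0.14), with DESeq2 (0.0503), unfiltered (0.12), with a replicate block (0.061) and with the compared libraries only (0.095). Of 8 other ABCC transporters 3 were called, 2 up and 1 down, and MRP, at 0.44 ± 0.13 (edgeR adjusted p = 0.025, lost in 4 of the fits without a library), rose where CG4562 was low. Of 5 other tested phosphatidylethanolamine-binding genes 0 were called by edgeR in wts against control discs, where 2 had an unadjusted p under 0.05 and DESeq2 called 1. The medians in wts against control discs were -0.57 for the potassium channels, -0.01 for the ABCC transporters and -0.01 for the phosphatidylethanolamine-binding genes.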

How the data were processed

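Of 31 samples in the series, 18 wing disc mRNA libraries were used, and the 13 by ChIP-nexus were left aside. Per the labels' protocols, TruSeq mRNA libraries were made from pooled larvae. The authors deposited 1 table of raw counts per gene. Per the submitters' processing notes, Bowtie2, TopHat2, HTSeq and DESeq2 were used on dm6. Roles, versions and strand use were not given in the sources used here.

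All of the 10 genes, the gene families and the markers were chosen with earlier results of these data known. Groups were taken from the labels. In R 4.3.3, edgeR 4.0.16 was fitted to the deposited counts (TMM, filterByExpr, quasi-likelihood F test, all 18 libraries, a coefficient per group), with p-values adjusted by Benjamini-Hochberg over 9004 genes and calls under 0.05. SE is the log2 change over the root of F, and the fit had a common coefficient of variation of 0.185. Of 17373 genes 2937 had 0 counts in every library. No 2 replicates agreed within sampling noise (chi-square per degree of freedom of 10.4 to 58.9). Gene places came from a RefSeq table of release 6 (12741 genes matched by symbol, 4378 by synonym, 254 not). The fit was checked on simulated counts.

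Named genes were, by a rule, the 10 genes and the nearest tested gene on each side of each. Added were up to 4 genes called within 50 kb of each, the 3 most alike genes, on or off genes and called family members. Alternatives were DESeq2 1.42.0, total-count or RLE scaling, all genes unfiltered, a replicate block, a fit of the compared libraries alone, leaving out each library, and neighbour windows of 20 and 200 kb. Levels of different genes are not compared, since CPM is not per length. Promoter and protein sequences were not used here.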

Additional observations from a re-analysis of the deposited data

How the results depend on the processing

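No result followed here reversed. Counts of called genes moved most. With DESeq2 they were 248 instead of 147 in cic against control, 486 instead of 262 in cic wts against wts at day 5, 1082 instead of 620 for the days in wts discs and 33 instead of 0 for the difference of the day effects. With only the compared libraries they were 19 in cic against control, 1044 instead of 2022 in cic wts against control and 1031 for the days in wts discs, and 1 instead of 5 for the neighbours of the cic genes. Leaving out control replicate 3 and cic wts day 5 replicate 1 together gave 403 instead of 955 for the days in cic wts discs. Called neighbours of the wts genes, 10 of 56 within 50 kb (17.9%), were 6 of 31 within 20 kb (19.4%) and 30 of 148 within 200 kb (20.3%), and the 15 on or off genes were 7 with a floor of 5 CPM.

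Leaving out each library in turn gave 61 (without cic replicate 2) to 149 calls in cic against control, 813 (without wts day 5 replicate 3) to 1285 instead of 1635 in wts against control, 1369 to 2081 in cic wts against control, 105 (without wts day 5 replicate 1) to 246 in cic wts against wts at day 5, and 307 (without cic wts day 9 replicate 2) to 482 instead of 621 at day 9. The days gave 118 (without wts day 5 replicate 3) to 467 in wts and 237 (without cic wts day 9 replicate 1) to 871 in cic wts discs, and 0 to 0 for their difference. Neighbours called were 2 to 4 for the cic and 6 to 9 for the wts genes, and on or off genes 15 to 28 (without control replicate 1). The log2 gap of mthl8 ranged from 4.76 to 5.70 (without cic replicate 2), of CG4362 from 1.73 to 3.24 (without control replicate 3), of CR45923 from 3.57 to 3.78, of CG4562 from 1.41 to 1.95 (without cic replicate 2) and of CG7054 from 1.45 to 2.30 (without wts day 9 replicate 1). Dscam4, CR43144, Snap25, ppk13 and SK moved by less than the replicate spread. The cause of these moves was not tested, other than the smaller number of libraries.

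The main fit did not pair samples by replicate number. In no comparison were all correlations of same-numbered deviations over 0.1 (cic against control 0.160, 0.032 and 0.400), which cannot show that the replicates were unpaired. With the number as a replicate block, 3 instead of 0 genes were called for the difference of the day effects, and SK passed for the days in cic wts discs (adjusted p = 0.045). Of 65 calls among the 112 results followed, each a gene in 1 comparison, 37 were lost in at least 1 alternative.

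Depth limits ppk13 outside wts discs and SK in wts discs, each read by a few counts per library, and CG9259 in control discs, with 0 or 1 count.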
